A study of Mus musculus with 4 samples.

Results

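Axon guidance ligands and receptors are the secreted and membrane proteins that steer growing axons, and 67 of the 18854 genes in the table belonged to this group. They were chosen by symbol alone: semaphorins of classes 3 to 7, plexins, neuropilins, ephrins, Eph receptors, Slits, Robos, netrins, netrin-Gs, the Unc5 receptors, Dcc and Draxin. That rule used no measured value. RNA was measured in wild-type mouse cortical neurons cultured for 15 days in vitro and then given Nutlin-3, labelled p53 activator, for 2 days, or DMSO, the solvent. Nutlin-3 is a small molecule that keeps Mdm2 from binding p53 and so spares p53 from degradation. Each group had 2 libraries of total RNA depleted of ribosomal RNA. The DMSO libraries carry a treatment label for untreated cells, but DMSO in their titles, which were followed. The sources used here do not give the strain, the age of the animals or the dose, nor do they say that the libraries of a group are separate cultures, and the p-values can speak only to the spread among these 4 libraries, which may be technical. In bulk RNA, fewer cells of a type and less RNA per cell cannot be told apart.

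Guidance cues act through matched receptors at the growth cone. Class 3 semaphorins are secreted and bind neuropilins, which signal through A-type plexins, whereas most membrane-bound semaphorins bind plexins directly. Ephrins sit on the membrane of one cell and bind Eph receptor tyrosine kinases on another, and both sides can signal. Slits repel axons through Robo receptors. Netrin-1 attracts through Dcc and repels through Unc5 receptors, and Draxin is a secreted repellent that binds Dcc. Netrin-Gs are lipid-anchored relatives that bind synaptic adhesion partners rather than Dcc. In mature neurons many of these proteins remain in use at synapses and dendrites. Unc5b, Epha2 and Sema3b are known p53 targets in other cell types.

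Promoter sequences were available for 57 of the 67 genes, in 72 start sites, from RefSeq on GRCm38.p6. The entries for Dcc, Efnb3, Ntn1, Plxna1, Plxna4, Sema3b, Sema3f, Sema6a, Slit1 and Unc5d are missing. Each window of 300 bases runs from 250 before to 50 after a start. The windows held a median of 21.5 CpG, close to the 20 in windows of the protein-coding genes tested. The median over all 32851 windows was 7. Windows of the members that rose held a median of 24 (25 windows), those of members not called 17 (41 windows) and those of members that fell 16 (4 windows). These windows come from 20, 31 and 4 genes, since some genes have several starts. The risen members Efnb3, Ntn1, Plxna1, Plxna4, Slit1 and Unc5d have no window, and the difference in CpG was not tested. The 250 bases upstream of 4 members are printed because these genes carry the comparisons that follow. They are Sema7a and Epha4, which rose, Epha6, which fell, and Unc5b, a known p53 target. They lie at chr9:57939862-57940111 (plus strand), chr1:77515089-77515338, chr16:60605532-60605781 and chr10:60831582-60831831 (minus strand for the last 3), and capitals mark each CpG, of which there are 17, 14, 15 and 27.
Sema7a: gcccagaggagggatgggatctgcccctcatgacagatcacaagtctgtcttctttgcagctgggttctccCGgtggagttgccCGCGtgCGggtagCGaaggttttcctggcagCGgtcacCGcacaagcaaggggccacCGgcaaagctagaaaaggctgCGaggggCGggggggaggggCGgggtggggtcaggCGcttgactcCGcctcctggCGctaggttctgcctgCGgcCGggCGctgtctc
Epha4: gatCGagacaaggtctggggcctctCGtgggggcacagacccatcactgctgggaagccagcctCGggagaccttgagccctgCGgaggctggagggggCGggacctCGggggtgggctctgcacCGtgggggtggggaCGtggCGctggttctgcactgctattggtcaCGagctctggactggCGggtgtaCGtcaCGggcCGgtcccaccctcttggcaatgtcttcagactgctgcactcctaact
Epha6: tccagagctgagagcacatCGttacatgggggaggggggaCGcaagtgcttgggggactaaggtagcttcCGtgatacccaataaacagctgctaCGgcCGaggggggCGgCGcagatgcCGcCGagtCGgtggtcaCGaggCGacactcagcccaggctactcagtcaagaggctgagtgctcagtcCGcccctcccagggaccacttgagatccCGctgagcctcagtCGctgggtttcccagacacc
Unc5b: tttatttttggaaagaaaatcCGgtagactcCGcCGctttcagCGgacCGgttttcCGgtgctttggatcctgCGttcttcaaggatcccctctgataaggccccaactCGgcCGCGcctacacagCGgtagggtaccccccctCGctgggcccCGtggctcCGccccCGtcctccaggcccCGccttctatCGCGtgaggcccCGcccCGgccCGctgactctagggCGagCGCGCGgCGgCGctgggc
The p53 half-site consensus, a palindrome and so the same on both strands, was found in 4 of the 72 windows (5.56%), against 6.87% of windows of protein-coding genes tested and 8.36% of all windows. None of the 4 upstream stretches printed here holds it. The half-sites upstream of Sema4d, Robo1 and Plxna3 are shown so that they can be set beside the values of these genes, of which Sema4d was called, and the window of Ntn3 holds another. They start at base -161 in Sema4d, at -213 and -109 in Robo1 and at -165 in Plxna3, counted from the start of transcription, and lie within chr13:51748952-51748981 (minus strand), chr16:72662926-72662955 and chr16:72663030-72663059 (plus strand) and chrX:74328891-74328920 (plus strand). Sema4d has other listed starts whose windows hold no half-site, so its offset counts from the start of the window that does. Capitals mark the half-site.
Sema4d: gaatggggacAGGCTTGTCCcacgacctgc
Robo1 first: aagggacccaAAACAAGTTCttattcgttg
Robo1 second: ttaacacgcaGAACTTGTCTgagcagcgcc
Plxna3: gacccatgagAGGCTTGCTTcttgcactag

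With the p53 activator, 53 of the 64 tested guidance genes (82.8%) had a positive fold change, against 64.1% of protein-coding genes. After scaling to the protein-coding total, 40 of the 64 were positive. The 4 called lower belonged to the Eph, Robo and netrin-G families. Of the 64 members tested, 26 rose and 4 fell (limma on log2(CPM + 1), called at an adjusted p under 0.05), a split that became 5 higher and 5 lower after scaling to the protein-coding total. Among nuclear protein-coding genes 20.9% were called higher and 7.33% lower, against 40.6% and 6.25% of the members, and among all 16654 genes tested the shares were 16.9% and 16.3%. The median log2 fold change of the members was 0.20, beside 0.09 for protein-coding genes and 0.03 for all genes. The largest rise of a called member was that of Unc5b, at 1.43-fold in mean CPM. Among 33 ligands, with the netrin-Gs counted among them, 13 rose and 1, Ntng1, fell, and among 31 receptors 13 rose and 3 fell. Of the fallen receptors, Epha1 passed the filter only through its DMSO libraries, which favours a fall. In 41 of the 64 both activator libraries lay above both DMSO libraries and in 6 below, which is 64.1% and 9.38% of the members, against 44.6% and 20.2% of protein-coding genes and 36.6% and 30.9% of all genes. The members' CPM summed to 4825 and 5215 CPM with DMSO, against 5471 and 6034 CPM with the activator. The forest plot gives each tested member.

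**Figure D1:**
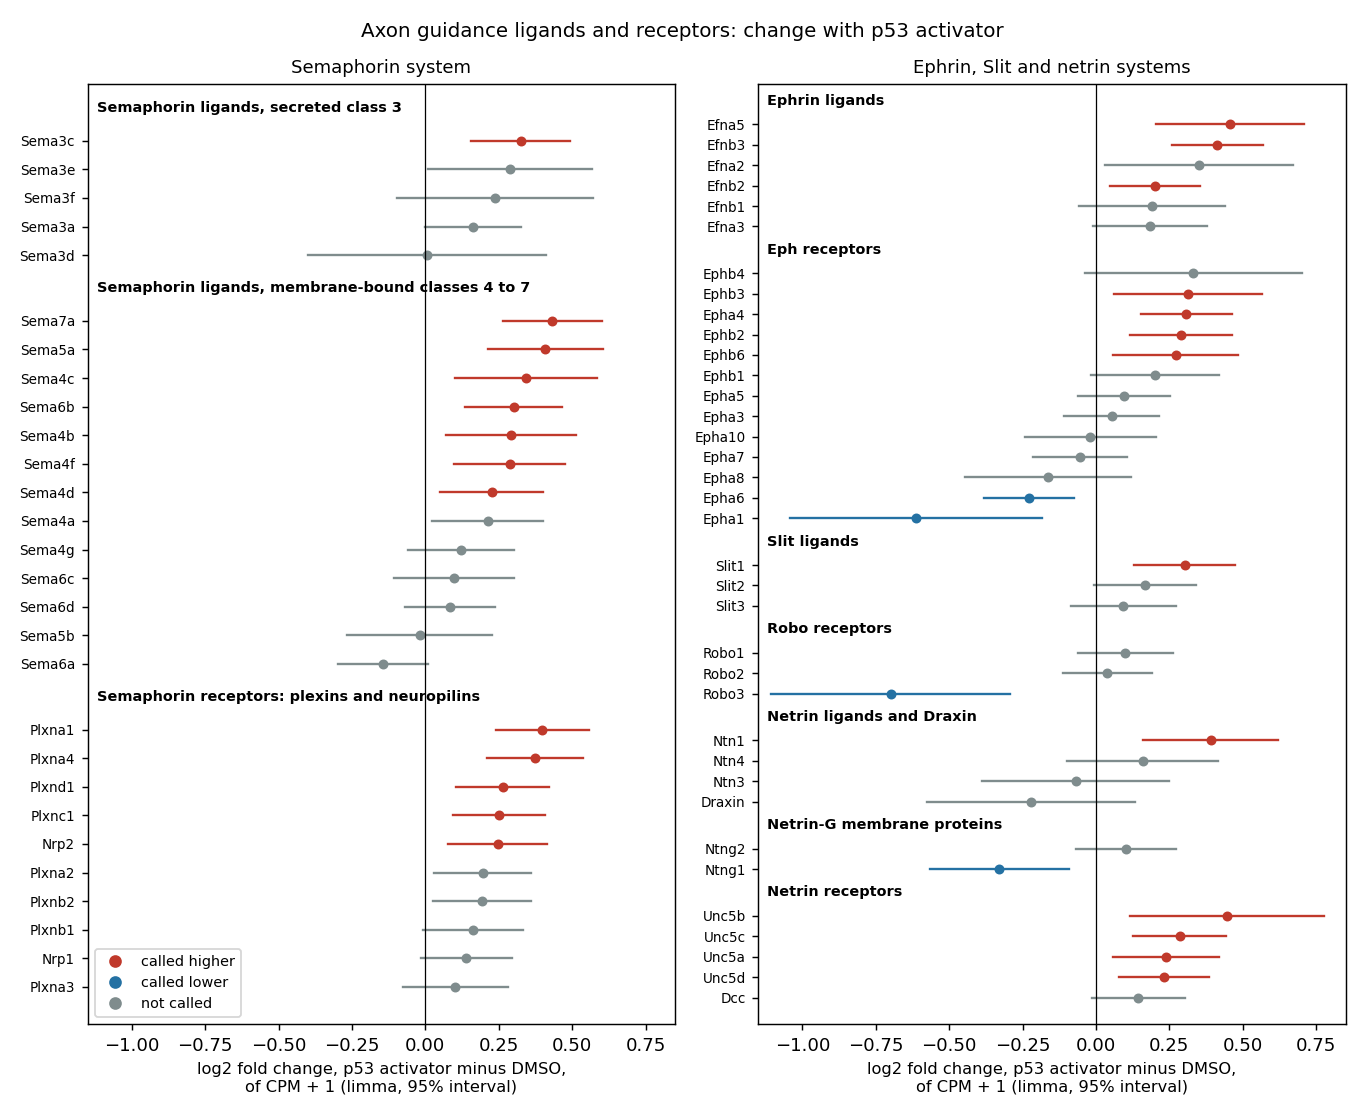
Log2 fold change of CPM + 1 (p53 activator minus DMSO, 2 libraries each) for the 64 tested members by family, with limma's 95% interval. Red points are the 26 called higher and blue points the 4 called lower (Robo3, Epha1, Ntng1 and Epha6), and most other points lie right of 0.

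The counts depended on the scale, the variance model and single libraries. Members called are given as counts, out of 64 unless another total is stated, and the protein-coding genes set against them as percentages. Mitochondrially encoded RNA took 14.3% to 15.6% of reads in DMSO and 8.97% to 9.99% with the activator, and protein-coding genes took 74.8% to 77.1% and 83.8% to 84.4%. With protein-coding genes scaled to the sum over these genes alone, their median log2 fold change moved by -0.14, to -0.04, and 5 members were called higher and 5 lower, where the shares of all protein-coding genes were 4.45% and 12.9%. The members' median was then 0.05. edgeR with TMM on the recovered reads called 12 members higher and 4 lower, against 13.2% and 8.51% of protein-coding genes. DESeq2 called 6 and 1 of 63 members, against 8.92% and 3.87%. limma without a trend of the spread with expression called 0 higher and 2 lower (16 and 3 at an unadjusted p under 0.05), against 2.17% and 3.66%. Quantile normalization gave 11 and 3, against 11.8% and 6.39%. The table without a filter gave 12 and 4 of 67 members, against 13.7% and 4.68%. A minimum of 5 CPM gave 26 and 2 of 60 members, against 26.3% and 7.21% of protein-coding genes. The counts also moved with single libraries. Leaving out DMSO replicate 1 gave 5 members higher and 0 lower (3 lower at an unadjusted p under 0.05), against 8.41% and 2.7% of protein-coding genes. Leaving out DMSO replicate 2 gave 23 and 1, against 15.8% and 6.17%. Leaving out p53 activator replicate 1 gave 27 and 2, against 12.3% and 6.58%, and leaving out p53 activator replicate 2 gave 7 and 2, against 14.3% and 4.06%. The sign of each of the 30 called members was the same in all 4 of these fits, while the call held in all 4 for Efnb3, Sema7a, Plxna1 and Sema3c. For the 25 of 26 risen and all 4 fallen members whose groups did not overlap, leaving out 1 library could not change the sign. Within groups the members also shared a direction. In DMSO, CPM was higher in replicate 2 than in replicate 1 for 50 of the 64 (78.1%, against 48.9% of protein-coding genes). With the activator this held for 53 of 64 (82.8%, against 38.9%), and in both groups for 68.8%, against 22.2% of protein-coding genes. The part of this shared direction in the calls was not tested.

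Most neuron markers rose, with a larger median log2 fold change than the members' 0.20. Of 12 neuron markers 9 rose and 1, Rbfox3, fell (median log2 fold change 0.36), and their CPM summed to 7619 and 8431 CPM with DMSO, against 9009 and 9159 CPM with the activator. After scaling to the protein-coding total 7 were called higher and 2 lower. Map2, a dendritic microtubule protein and the most abundant of them, went from 3863 ± 365 to 3583 ± 27.0 CPM (SD, n = 2 each) and was called lower only after that scaling. Astrocyte markers were plentiful: 1 of 10 rose, and they summed to 2711 and 2655 CPM with DMSO, against 3089.6 and 3009.7 CPM with the activator. Of 19 tested markers of the oligodendrocyte lineage, microglia, endothelial and mural cells and fibroblasts, limma called 1, Kdr, an endothelial receptor, higher (edgeR called 1 higher and 1 lower). Kdr stood at 0.343 and 0.601 CPM with DMSO, against 1.10 and 1.24 CPM with the activator. It thus passed the filter only through the activator group. Tek, another endothelial marker, passed only through DMSO and had a log2 fold change of -0.52 (limma adjusted p = 0.0524). After scaling to the protein-coding total 0 of the 19 were called higher and 2 lower. The 4 of 10 microglia markers listed summed to 11.56 to 12.34 CPM with DMSO and 10.95 to 11.96 CPM with the activator, and the 4 of 10 endothelial and mural markers listed to 6.15 to 8.43 CPM with DMSO and 6.50 to 7.56 CPM with the activator. The 8 of 10 fibroblast markers listed summed to 113 to 115 CPM with DMSO and 119 to 129.7 CPM with the activator, and the 8 of 10 oligodendrocyte lineage markers listed to 179 to 183 CPM with DMSO and 201 to 202 CPM with the activator. Trp53 itself had a log2 fold change of 0.07 (limma adjusted p = 0.761), and the p53 targets Mdm2 and Cdkn1a had -0.16 (0.166) and 0.19 (0.215). The part of cell makeup in the members' changes was not tested.

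Among semaphorins, the membrane-bound classes held most of the rises. Of 13 tested members of classes 4 to 7, 7 rose (median log2 fold change 0.23). Sema7a, a lipid-anchored semaphorin that signals through integrins and Plxnc1, stood at 51.2 and 57.7 CPM with DMSO, against 70.2 and 77.3 CPM with the activator. Both activator libraries lay above both DMSO libraries, and Sema7a rose 1.36-fold, the mean going from 54.4 ± 4.60 to 73.7 ± 5.02 CPM (SD, n = 2 each; limma adjusted p = 3.20e-05, log2 fold change 0.43 ± 0.09 SE). Sema5a, which carries thrombospondin repeats and can attract or repel, stood at 26.9 and 32.5 CPM with DMSO, against 39.0 and 40.2 CPM with the activator. The groups did not overlap (limma adjusted p = 0.000616, log2 fold change 0.41 ± 0.10 SE), and leaving out DMSO replicate 1 ended the call (0.28, limma adjusted p = 0.115). Its paralog Sema5b stood at 15.3 and 16.6 CPM with DMSO, against 15.3 and 16.1 CPM with the activator, with overlapping groups and a 95% interval of -0.27 to 0.23.

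Sema6b, a ligand of A-type plexins, stood at 83.1 and 95.1 CPM with DMSO, against 98.2 and 123 CPM with the activator. The 2 activator libraries were the highest, but the lower of them lay close to the upper DMSO library. It rose by 0.30 on the log2 scale (limma adjusted p = 0.00297), which was lost without DMSO replicate 1 (0.20, limma adjusted p = 0.167) or p53 activator replicate 2 (0.14, limma adjusted p = 0.307). Class 4 semaphorins bind B-type plexins, among other receptors. Sema4b, Sema4c, Sema4d and Sema4f rose with log2 fold changes of 0.29, 0.34, 0.23 and 0.29. Over fits that left out 1 library these 4 ranged from 0.12 to 0.50, and without DMSO replicate 1 all 4 calls were lost. Those of Sema4b, Sema4c and Sema4d were also lost without p53 activator replicate 2, those of Sema4b and Sema4d without DMSO replicate 2, and those of Sema4d and Sema4f without p53 activator replicate 1. Sema4a (0.21) and Sema4g (0.12) were not called.

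The other class 6 members were not called on CPM. Sema6d, the most abundant membrane-bound semaphorin in CPM, stood at 161 and 159 CPM with DMSO, against 165 and 174 CPM with the activator, and was not called (95% interval of the log2 fold change -0.07 to 0.24). Sema6c had a log2 fold change of 0.10. Sema6a, also a ligand of A-type plexins, stood at 148 and 149 CPM with DMSO, against 131 and 137 CPM with the activator. Both activator libraries were below both DMSO libraries, without a call on CPM (limma adjusted p = 0.138, log2 fold change -0.15 ± 0.08 SE), and with one after scaling to the protein-coding total (-0.29, limma adjusted p = 0.00178).

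Of the 5 tested secreted class 3 semaphorins only Sema3c was called. It attracts or repels through neuropilins and plexins, and stood at 53.8 and 53.5 CPM with DMSO, against 67.9 and 66.9 CPM with the activator. The 2 libraries of each group lay close together and far from the other group, and Sema3c rose 1.26-fold (limma adjusted p = 0.00163, log2 fold change 0.32 ± 0.08 SE). That call held without any single library, with log2 fold changes of 0.31 to 0.33. Sema3a, the classic collapsing factor of growth cones and the most abundant of the class, stood at 70.7 and 66.1 CPM with DMSO, against 79.4 and 73.8 CPM with the activator. Its groups did not overlap, and it was not called (limma adjusted p = 0.124, log2 fold change 0.16 ± 0.08 SE). Sema3e (0.29), which binds Plxnd1 without a neuropilin, Sema3f (0.24), a ligand of Nrp2, and Sema3d (0.01) were not called, though Sema3e was without DMSO replicate 2 (0.45, limma adjusted p = 0.0374). Sema3e, Sema3f and Sema3d lay at 1.65 to 14.6 CPM per library.

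The semaphorin receptors had 5 rises among 10 tested members. All 10 fold changes were positive on CPM (median 0.22, or 0.07 scaled to the protein-coding total). Plxna1, a receptor for class 3 and class 6 semaphorins, stood at 193 and 224 CPM with DMSO, against 253 and 298 CPM with the activator. Activator libraries were higher than DMSO libraries throughout, and Plxna1 rose 1.32-fold, the mean going from 209 ± 22.1 to 275 ± 31.8 CPM (SD, n = 2 each; limma adjusted p = 4.55e-05, log2 fold change 0.40 ± 0.08 SE). In GENCODE vM21, Plxna1 shares 970 exon bases on the opposite strand with Gm26811, an antisense gene that was not among the genes measured. Whether strand was used in counting is not given in the sources used here, so reads from the shared bases cannot be told apart. Plxna4, which serves Sema3a in sensory and cortical axons, stood at 309.9 and 371 CPM with DMSO, against 410.3 and 471 CPM with the activator. It rose 1.29-fold (limma adjusted p = 0.000206, log2 fold change 0.37 ± 0.08 SE), and the call was lost without p53 activator replicate 2 (0.28, limma adjusted p = 0.0507) and without DMSO replicate 1 (0.25, limma adjusted p = 0.0603). DESeq2 did not call Plxna4 (adjusted p = 0.195).

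Plxna2, the most abundant plexin in CPM, stood at 439 and 469 CPM with DMSO, against 486 and 555 CPM with the activator. The groups did not overlap, and the change just missed the threshold (limma adjusted p = 0.0595, log2 fold change 0.20 ± 0.08 SE), which it passed without DMSO replicate 2 (0.24, limma adjusted p = 0.0441). Plxnd1, the receptor of Sema3e, Plxnc1, the receptor of Sema7a, and the neuropilin Nrp2 rose by 0.26, 0.25 and 0.25. The calls of Plxnd1, Plxnc1 and Nrp2 were each lost without DMSO replicate 1 and without p53 activator replicate 2, where values ran down to 0.13. Plxna3, Plxnb1, Plxnb2 and Nrp1 lay between 0.10 and 0.19 and were not called, though Plxnb2 was without p53 activator replicate 1 (0.28, limma adjusted p = 0.0258). For the Sema7a and Plxnc1 pair, ligand and receptor both rose, whereas for Sema3e and Plxnd1 only the receptor was called, and the difference between the pairs was not tested.

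Of 6 tested ephrins 3 rose. All 6 fold changes were positive on CPM (median log2 fold change 0.28, or 0.14 scaled to the protein-coding total). Efnb3, a transmembrane ephrin that halts corticospinal axons at the midline and acts at synapses, stood at 113 and 126 CPM with DMSO, against 154 and 163 CPM with the activator. The lower activator library exceeded the upper DMSO library by more than the gap within either group. Efnb3 rose 1.33-fold, the mean going from 119 ± 9.25 to 159 ± 6.36 CPM (SD, n = 2 each; limma adjusted p = 1.45e-05, log2 fold change 0.41 ± 0.08 SE), and had the smallest p of all members. Its log2 fold change ranged from 0.33 to 0.49 when 1 library was left out, called each time. Efna5, a lipid-anchored ephrin that maps thalamic and retinal axons, stood at 11.9 and 14.4 CPM with DMSO, against 17.8 and 19.0 CPM with the activator. Again the groups were apart (limma adjusted p = 0.00301, log2 fold change 0.46 ± 0.13 SE), and the call was lost without DMSO replicate 1 (0.33, limma adjusted p = 0.129).

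Efnb2, the most abundant ephrin in CPM, stood at 132 and 139.7 CPM with DMSO, against 151 and 161 CPM with the activator. It rose 1.15-fold (limma adjusted p = 0.0363), a call lost in each fit that left out 1 library (0.16 to 0.24 on the log2 scale, smallest limma adjusted p = 0.0507) and in edgeR (adjusted p = 0.163). Efna2, Efna3 and Efnb1 were not called, with log2 fold changes of 0.35, 0.18 and 0.19, and Efna2 was called higher without p53 activator replicate 1 (0.51, limma adjusted p = 0.0426). Of the 2 ephrin classes, the A ephrins are tied to the membrane by a lipid anchor and the B ephrins span it, and each class had called members.

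Eph receptors went both ways: 4 of 13 tested rose, 2 fell, and the median log2 fold change was 0.10. Epha4, the receptor that binds ephrins of both classes, stood at 260.2 and 272 CPM with DMSO, against 319 and 340.0 CPM with the activator. The groups were well separated, and Epha4 rose 1.24-fold, the mean going from 266 ± 8.18 to 329.7 ± 14.6 CPM (SD, n = 2 each; limma adjusted p = 0.00119, log2 fold change 0.31 ± 0.08 SE). Its call was just lost without p53 activator replicate 2 (0.26, limma adjusted p = 0.0514). Epha6, a related receptor of A ephrins whose gene spans 969 kb, stood at 147 and 147 CPM with DMSO, against 125 and 126 CPM with the activator. Here both activator libraries were the lower ones, with little spread in either group, and Epha6 fell from 147 ± 0.0683 to 125 ± 1.04 CPM (limma adjusted p = 0.0158, log2 fold change -0.23 ± 0.08 SE). The fall was called in edgeR (adjusted p = 0.0128) and DESeq2 (adjusted p = 0.0352) and lost in each limma fit that left out 1 library (smallest limma adjusted p = 0.0630). Gm9017, an antisense gene that shares 107 exon bases with Epha6, was at 1.10 to 2.20 CPM.

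Epha5, the most abundant Eph receptor in CPM, stood at 345 and 359 CPM with DMSO, against 367 and 385 CPM with the activator. Although the activator libraries were the higher ones, it was not called (95% interval -0.06 to 0.25). Epha1 was rare, at 1.44 and 1.20 CPM with DMSO, against 0.525 and 0.508 CPM with the activator, or 21, 18, 10 and 9 reads in that order. Epha1 reached the 1 CPM needed for testing only in the DMSO libraries, so the filter itself favoured a fall. It fell to 0.391 of its DMSO mean (limma adjusted p = 0.0216, log2 fold change -0.61 ± 0.22 SE), and the call was lost in each fit that left out 1 library (smallest limma adjusted p = 0.0588). Its exons share 236 bases with Zyx on the opposite strand in GENCODE vM21, and whether strand was used in counting is not given in the sources used here, so reads from the shared bases cannot be told apart. The B receptors Ephb2, Ephb3 and Ephb6, which bind B ephrins at dendritic spines and axons, rose by 0.29, 0.31 and 0.27. The calls of Ephb2, Ephb3 and Ephb6 were lost without DMSO replicate 1 and without p53 activator replicate 2, those of Ephb3 and Ephb6 also without DMSO replicate 2 and that of Ephb3 without p53 activator replicate 1 (over the 4 fits, 0.14 to 0.41). Epha3, Epha7, Epha8, Epha10, Ephb1 and Ephb4 were not called and ran from -0.16 (Epha8) to 0.33 (Ephb4).

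The Slit and Robo families changed little apart from Slit1 and Robo3. Slit1, the Slit most restricted to the nervous system, stood at 75.1 and 87.2 CPM with DMSO, against 85.7 and 117 CPM with the activator. The groups overlapped, because the first activator library was below the second DMSO library. Slit1 was called higher all the same (limma adjusted p = 0.00434, log2 fold change 0.30 ± 0.09 SE), and that call rested on p53 activator replicate 2: without it the log2 fold change was 0.08, limma adjusted p = 0.600, and without DMSO replicate 1 it was 0.20, limma adjusted p = 0.193. edgeR did not call Slit1 (adjusted p = 0.0664). Slit2 (0.17) and Slit3 (0.09) were not called, and their groups overlapped too. Slit2 was called higher without p53 activator replicate 1 (0.35, limma adjusted p = 0.00413) or DMSO replicate 2 (0.27, limma adjusted p = 0.0494), and without p53 activator replicate 2 both were negative (-0.02 and -0.04).

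Robo2, the most abundant Robo receptor in CPM, stood at 231 and 240.4 CPM with DMSO, against 243 and 241 CPM with the activator. All 4 libraries lay within a narrow range, and the 95% interval of the log2 fold change was -0.11 to 0.19. Robo1 was not called either (0.10). Robo3, which in commissural axons counters Slit repulsion before the midline, was rare at 2.61 and 2.27 CPM with DMSO, against 1.10 and 1.13 CPM with the activator. That is 38, 34, 21 and 20 reads, with the activator libraries at less than 0.5 of the DMSO level in CPM, and Robo3 fell (limma adjusted p = 0.00536, log2 fold change -0.70 ± 0.21 SE). edgeR also called the fall (adjusted p = 0.00835), DESeq2 did not (adjusted p = 0.0739), and neither did limma without DMSO replicate 1 (-0.63, limma adjusted p = 0.0990).

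In the netrin system the Unc5 receptors and Ntn1 rose, Dcc was not called and Ntng1 fell. Ntn1, which encodes netrin-1, stood at 17.1 and 17.3 CPM with DMSO, against 20.9 and 25.0 CPM with the activator. It rose 1.33-fold (limma adjusted p = 0.00577, log2 fold change 0.39 ± 0.12 SE), and without p53 activator replicate 2 the call was lost (0.27, limma adjusted p = 0.174), as it was without DMSO replicate 1 (0.38, limma adjusted p = 0.0538). Ntn4, a basement membrane netrin, Ntn3 and Draxin were not called (0.16, -0.07 and -0.22). Draxin stood at 5.97 and 6.08 CPM with DMSO, against 3.78 and 6.60 CPM with the activator, so that the activator libraries lay on both sides of DMSO. Without p53 activator replicate 2 it was called lower (-0.56, limma adjusted p = 0.0478).

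All 4 Unc5 receptors were called higher. Unc5c stood at 87.7 and 99.0 CPM with DMSO, against 108 and 119.7 CPM with the activator, and its groups did not overlap (limma adjusted p = 0.00350, log2 fold change 0.29 ± 0.08 SE). Unc5d, the most abundant of the netrin receptors in CPM, stood at 142 and 155 CPM with DMSO, against 171 and 177 CPM with the activator, and rose 1.17-fold (limma adjusted p = 0.0147). Unc5a rose by 0.24 on the log2 scale, a call lost also without DMSO replicate 2. Unc5b, a known p53 target, was the rarest, at 5.07 and 6.01 CPM with DMSO, against 6.92 and 8.97 CPM with the activator. Both activator libraries were above both DMSO libraries (limma adjusted p = 0.0301, log2 fold change 0.45 ± 0.17 SE). Each of the 4 Unc5 calls was lost without DMSO replicate 1 and without p53 activator replicate 2, where Unc5b had 0.34, limma adjusted p = 0.235 and 0.28, limma adjusted p = 0.352. In edgeR only Unc5c was called (adjusted p = 0.0410, against 0.0968, 0.0616 and 0.0981 for Unc5a, Unc5b and Unc5d).

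Dcc, the attractive netrin receptor, stood at 116 and 129 CPM with DMSO, against 126 and 145 CPM with the activator. One activator library lay between the DMSO libraries, and the 95% interval of its log2 fold change was -0.01 to 0.30 (limma adjusted p = 0.155). Without p53 activator replicate 1 it was called higher (0.25, limma adjusted p = 0.0465). Ntng1, a netrin-G of thalamic and cortical axons, stood at 20.2 and 19.9 CPM with DMSO, against 16.3 and 15.3 CPM with the activator. The activator libraries were the lower ones, and Ntng1 fell from 20.1 ± 0.225 to 15.8 ± 0.681 CPM (SD, n = 2 each; limma adjusted p = 0.0253, log2 fold change -0.33 ± 0.12 SE), a call lost without either DMSO library (first: -0.32, limma adjusted p = 0.144, second: -0.34, limma adjusted p = 0.0862) and without p53 activator replicate 2 (-0.29, limma adjusted p = 0.134). Its paralog Ntng2 stood at 68.2 and 75.6 CPM with DMSO, against 68.2 and 87.3 CPM with the activator, with overlapping groups. Without p53 activator replicate 1 Ntng2 was called higher (0.28, limma adjusted p = 0.0261), and without p53 activator replicate 2 its value was negative (-0.07, limma adjusted p = 0.640). In GENCODE vM21, Ntng2 shares 558 exon bases on the same strand with 6530402F18Rik, itself at 50.7 to 59.8 CPM, so their reads may not be separable.

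**Figure D2:**
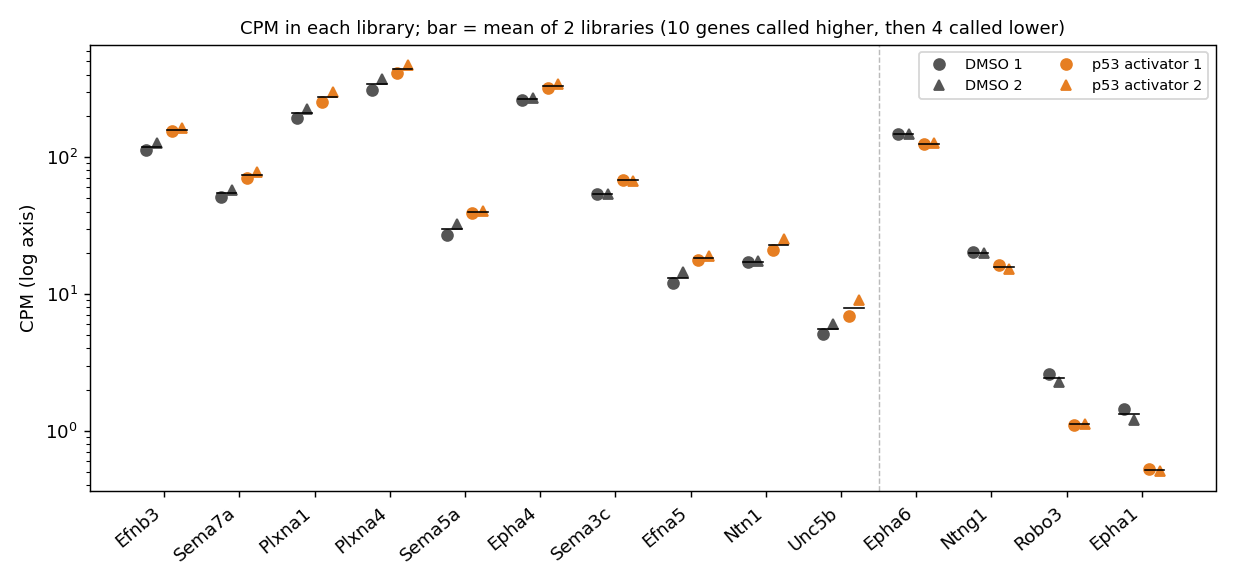
CPM (log axis) of 14 members in each of the 4 libraries, DMSO in grey and p53 activator in orange, with bars at the mean of 2 libraries. In each of the 10 genes left of the dashed line both orange points lie above both grey points, and in Epha6, Ntng1, Robo3 and Epha1 both lie below.

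Epha2, Sema3b and Plxnb3 were too rare to test. Epha2 stood at 0.206 and 0.334 CPM with DMSO, against 0.577 and 0.339 CPM with the activator, which is 3, 5, 11 and 6 reads. Sema3b stood at 0.343 and 0.267 CPM with DMSO, against 0.839 and 0.282 CPM with the activator, and Plxnb3 at 0.617 and 0.468 CPM with DMSO, against 0.262 and 0.452 CPM with the activator. The Sema3b groups overlapped, and no statement on direction is possible for these 3 genes at this depth. Of Unc5b, Epha2 and Sema3b, the 3 members named above as known p53 targets, Unc5b alone was abundant enough to test.

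The members called under both scalings were Efnb3, Sema7a, Plxna1, Plxna4 and Sema5a, which rose, and Robo3, Epha1, Ntng1 and Epha6, which fell. Scaled to the protein-coding total, the log2 fold changes were 0.27, 0.29, 0.25, 0.23 and 0.27 for the 5 rises and -0.85, -0.76, -0.47 and -0.38 for the 4 falls. Sema6a was the fifth called lower there. Epha1 was tested only because of its DMSO level, which favours a fall under either scaling. The other 21 members that rose on CPM kept positive values without a call, and Dcc, Nrp1, Robo1, Robo2, Epha3, Epha5, Ntng2, Plxna3, Slit3, Sema3d, Sema4g, Sema6c and Sema6d, none of them called, turned negative. edgeR called all 9 of the members that were called under both scalings, DESeq2 called Efnb3, Sema7a, Plxna1, Sema5a and Epha6 of them (it gave Epha1 no adjusted p), and quantile normalization did not call Plxna4, Robo3 or Epha1.

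**Figure D3:**
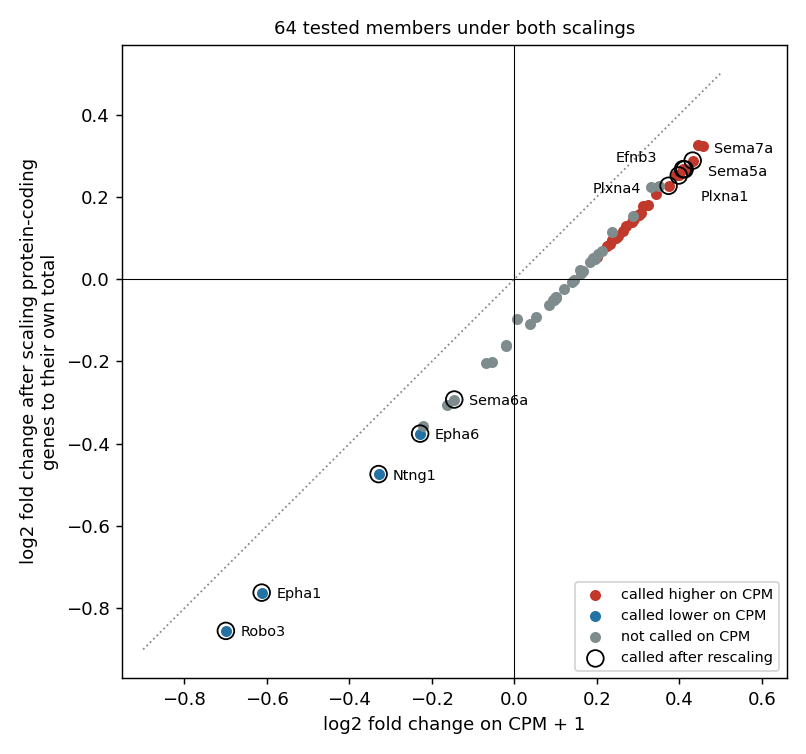
Log2 fold change of the 64 tested members on CPM + 1 (horizontal) and after scaling protein-coding genes to their own total (vertical), coloured by the call on CPM, with black rings at the 10 called after rescaling. Points lie below the dotted line of equal values, and the ringed points are 5 rises, near the upper right, and 5 falls at the lower left.

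Ratios within a library do not depend on its scale, and pairs of relatives, chosen after their values were seen, are given as a description. The ratio of Epha4 to Epha6 was 1.77 and 1.85 with DMSO, against 2.56 and 2.70 with the activator. The ratio of Sema5a to Sema5b was 1.76 and 1.96 with DMSO, against 2.55 and 2.50 with the activator, and that of Plxna1 to Plxna3 was 4.30 and 4.82 with DMSO, against 5.57 and 5.61 with the activator. For Sema6b to Sema6a the values were 0.563 and 0.638 with DMSO, against 0.749 and 0.896 with the activator. In these 4 pairs both activator libraries were above both DMSO libraries, which the choice of a risen member beside an uncalled or fallen relative favours, and no test was made. For Ntng2 to Ntng1 the ratio was 3.37 and 3.80 with DMSO, against 4.19 and 5.71 with the activator, likewise apart, with a wide gap between the activator libraries. Robo1 to Robo3 gave 37.2 and 50.3 with DMSO, against 94.7 and 108 with the activator, and Efnb3 to Efnb1 8.30 and 7.62 with DMSO, against 9.52 and 8.93 with the activator.

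**Figure D4:**
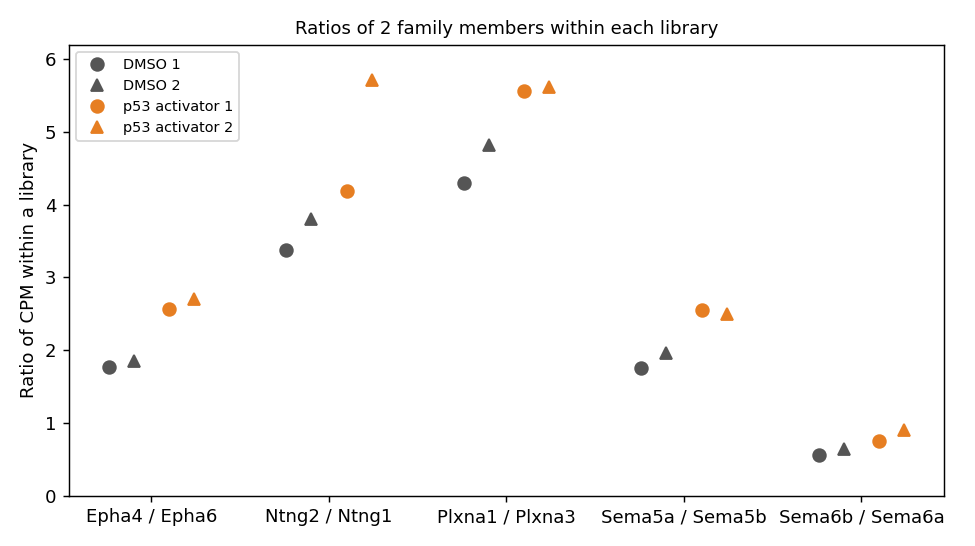
Ratio of the CPM of 2 relatives within each library for 5 pairs, DMSO in grey and p53 activator in orange. In each pair the orange points lie above the grey points, for Epha4 over Epha6 at 2.56 and 2.70 against 1.77 and 1.85.

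Other genes of the pathway were taken from 2 lists. Of 31 coreceptors and other cues 17 rose (median log2 fold change 0.26), and of 46 tested cytoplasmic effectors 15 rose and 3 fell (0.14). Together 41.6% were called higher and 3.90% lower, close to the members' 40.6% and 6.25%. L1cam, an adhesion molecule that partners with Nrp1, rose by 0.48 on the log2 scale (224 ± 28.4 to 314 ± 44.1 CPM, SD, n = 2 each), and Rgmb, a ligand of neogenin, from 105 ± 10.3 to 138 ± 6.02 CPM. Chl1, the most abundant of that list in CPM and a relative of L1cam, rose by 0.34. Among effectors, Rac1, a GTPase that drives growth cone protrusion, rose from 119.6 ± 6.18 to 166 ± 0.114 CPM, and Chn1, which inactivates Rac downstream of Epha4, from 214 ± 10.2 to 280.0 ± 26.3 CPM. Dpysl3, the most abundant effector in CPM and a collapsin response protein, rose by 0.31. Rock1, a kinase of growth cone collapse, fell by 0.46 on the log2 scale, and Mical3 fell by 0.32. After scaling to the protein-coding total 9 pathway genes were higher and 7 lower, and without DMSO replicate 1 or p53 activator replicate 2, 11 and 15 were higher.

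Levels between genes were compared per kilobase of merged GENCODE vM21 exons. Efnb3 was the highest member at 37.4 in DMSO and 49.9 with the activator (mean CPM per kb), followed in DMSO by Epha4 at 33.0 in DMSO and 40.9 with the activator and Epha6 at 27.8 in DMSO and 23.7 with the activator. In DMSO the libraries of Efnb3 (35.4 and 39.5) and Epha4 (32.3 and 33.7) did not overlap, and neither did those of Epha4 and Epha6. Plxna2, Plxna4, Plxnc1 and Plxna1 followed at 23.0 to 26.4 CPM per kb, and the libraries of each neighbouring pair among these overlapped. With the activator, Epha6 was below all 4 of these plexins in mean CPM per kb. At the low end of the tested members, Robo3 stood at 0.356 in DMSO and 0.163 with the activator. Epha1 stood at 0.336 in DMSO and 0.131 with the activator, and Sema3d at 0.236 in DMSO and 0.235 with the activator. The untested Epha2, Sema3b and Plxnb3 were lower in both groups.

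Guidance genes are long. The median genomic span of tested members was 107 kb, against 26.2 kb for protein-coding genes tested, and the members that rose, fell and were not called had medians of 88.6, 194 and 114 kb. Across the 64 members, Spearman's rho of the log2 fold change was -0.11 with span and 0.07 with mean CPM, where 13134 and 13167 protein-coding genes gave -0.09 and 0.38. These values are across genes of the same libraries, which are not independent replicates. Dcc, Robo1 and Robo2, with the longest spans among the members (1098, 1020 and 1555 kb), had log2 fold changes of 0.14, 0.10 and 0.04 and no call. Efnb3, with the strongest call, spans 7.06 kb.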

How the data were processed

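The deposited table holds CPM (reads scaled to the same library total of 1e6) per gene, as its values show. Dividing by the smallest step gave whole reads for 100% of values within 0.01 reads, 14584247 and 14968028 for DMSO, 19065197 and 17716272 for the activator, so 1 read was worth 0.0525 to 0.0686 CPM. Per the submitters' processing notes TopHat2, Cufflinks 2.0.0 and mm9 were used, with no role stated; the counting program and its strand setting were not given in the sources used here. No coordinates of the files were used, and promoters, spans and exons come from GRCm38 tables (RefSeq and GENCODE vM21).

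A gene was tested if 2 or more libraries had 1 CPM or more (16654 of 18854). log2(CPM + 1) was tested with limma 3.58.1 (R 4.3.3; variance trend, residual df 2, prior df 98.0), two-sided, with Benjamini-Hochberg adjustment over all tested genes. Since the prior df far exceeded the residual df, each SE and p rests mostly on the spread of genes with similar expression. A gene's own libraries weigh little in them. Fold changes are on the log2(CPM + 1) scale, which understates the change of rare genes. The script was tested on simulated data. Recovered reads were tested with edgeR 4.0.16 (quasi-likelihood) and DESeq2 1.42.0. The alternatives were pseudocounts, filters, scalings, variance models, a replicate block and leaving out each library; with 1 library left in a group, that library is assumed to vary like the other group's.

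Named in full were Unc5b, Epha2, Sema3b, the most abundant gene of each family and the members with the smallest p, 24 in all; Epha1, Epha6, Ntng1 and others outside that rule, the ratio pairs and the promoters shown were chosen after their values were seen. The members and lists were chosen with earlier results of these data known. Not every gene of the pathway lists is reported here by name.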

Additional observations from a re-analysis of the deposited data

How the results depend on the processing

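With 2 libraries per group, single libraries and the choice of scale limit these results, and depth limits Epha1, Epha2, Robo3, Sema3b and Plxnb3, which rest on few reads. Members called higher (26 on CPM) numbered 12 without the filter, 5 scaled to the protein-coding total, 11 with quantile normalization, 12 in edgeR, 6 in DESeq2 and 0 in limma without a trend (16 at an unadjusted p under 0.05), and 5 to 27 when 1 library was left out. Members called lower (4) numbered 2 with a minimum of 5 CPM, 1 in DESeq2 and 2 without a trend, and 0 to 2 with 1 library left out. All genes called higher (2811 of 16654) numbered 1632 by quantile, 1786 in edgeR, 1156 in DESeq2 and 302 without a trend, and 1138 to 2122 with 1 library left out. Those called lower (2721) numbered 1776 with a minimum of 5 CPM and 1585 in DESeq2, and 1445 to 2468 with 1 library left out. Scaling to the protein-coding total covered only the 13167 protein-coding genes, of which 586 instead of 2746 were called higher and 1697 instead of 965 lower. Other pathway genes called higher (32) numbered 9 scaled to the protein-coding total, 16 by quantile, 21 in edgeR, 21 in DESeq2 and 1 without a trend, and 11 to 32 with 1 library left out. Those called lower (3) numbered 7 scaled to the protein-coding total, 7 by quantile, 0 in limma without a trend (3 at an unadjusted p under 0.05) and 2 to 3 with 1 library left out.

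Among the members named in full the sign reversed for 4, none of them called on CPM, and the cause was not tested. Scaled to the protein-coding total, the log2 fold changes were -0.0512 for Epha5, -0.0437 for Ntng2, -0.11 for Robo2 and -0.0625 for Sema6d. With quantile normalization they were -0.0797 for Epha5, -0.0014 for Ntng2, -0.10 for Robo2 and -0.0713 for Sema6d. Robo2 was at -0.0051 in edgeR, and Ntng2 ranged from -0.0741 (without p53 activator replicate 2) to 0.278 with 1 library left out. Labels do not say that replicate numbers mark a shared culture or batch, and deviations of same-numbered libraries from their group means had a correlation of 0.117 across genes. A replicate block called 32 members higher and 4 lower, among them all 26 and 4 called without it (27.5% and 9.49% of protein-coding genes), and 5 pathway genes lower.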
